A study of Danio rerio with 28 samples.

Results

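Germ-free zebrafish larvae that lacked il22, the gene of the cytokine interleukin-22 (IL-22), were compared with germ-free wild type larvae, with 4 RNA sequencing libraries of dissected guts in each group. The members are the libraries titled il22koGF and WTGF, numbered 1 to 4 in each group, which make up 8 of the 28 libraries of the series. The knockout larvae were il22-/- and the others were wild type (WT). All 8 libraries came from larvae at 7 days post-fertilization that had been raised axenic, that is without microbes, and each library pooled 10 to 15 guts. The sources used here do not give the allele, the parents of each line or the number of clutches. The title of the study places IL-22 in enteroendocrine cells, the hormone-secreting cells of the gut epithelium, and links it to gut movement through the microbiota. The comparison asks what differed between the genotypes when neither carried microbes. Guts of conventionally raised larvae of both genotypes (4 libraries each) are used below for comparison with the germ-free result. These libraries and 4 of co-housed knockout larvae also shared 1 model with the germ-free ones. They therefore took part in the filter, the scaling and the estimate of spread behind the germ-free p-values. An earlier experiment of knockout and wild type guts, whose rearing the labels do not state (4 each), is used only for comparison. Because each library is 1 pool, p-values measure the spread between pools and not between single larvae.

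IL-22 belongs to the interleukin-10 family of cytokines and in mammals is made mainly by lymphoid cells of barrier tissues. It binds a receptor pair on epithelial cells and signals through JAK kinases and the transcription factor STAT3, with SOCS proteins as feedback inhibitors. In the gut it is known for inducing antimicrobial proteins and for acting on epithelial renewal and barrier function, and its production is in turn driven largely by microbes.

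The targeted gene was close to the detection limit. Library totals were 23578866 to 26586323 counts in the knockout and 23920250 to 30997846 counts in wild type, and il22 had 0, 1, 1 and 1 counts in the 4 knockout libraries, against 0, 5, 2 and 0 in the 4 wild type libraries. Its level averaged 0.0298 ± 0.0199 CPM (counts scaled to a library of 1000000) in knockout guts and 0.0667 ± 0.0889 CPM in wild type guts (SD, n = 4 each), and the groups overlapped (exact two-sided permutation test, p = 0.714, where 4 against 4 allows no p below 0.0286). Wild type library 2 decided the sign, since without it the difference was 0.0035 CPM with the knockout higher. The il22 counts therefore give no check of the genotype labels in either direction. The genotypes were nevertheless far apart as a whole: the first principal component of the 8 libraries held 50.4% of the variance and separated all 4 knockout libraries (30.1 to 42.7) from all 4 wild type libraries (-41.3 to -34.1). Intestinal epithelium genes averaged 6.09 to 6.17 in knockout and 6.05 to 6.18 in wild type libraries on the log2 CPM scale. Genes typical of tissues around the gut were at uneven levels between libraries. Skeletal muscle genes averaged 4.22 in wild type library 2, against 0.95 to 2.02 in the other 7 libraries, and skin genes averaged 4.90 in knockout library 3, against 3.24 to 4.42 in the other 7. Liver genes were high in knockout libraries 1 and 4 and in wild type library 2 (3.17 to 3.38) and lower in the others (1.57 to 2.04).

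**Figure D1:**
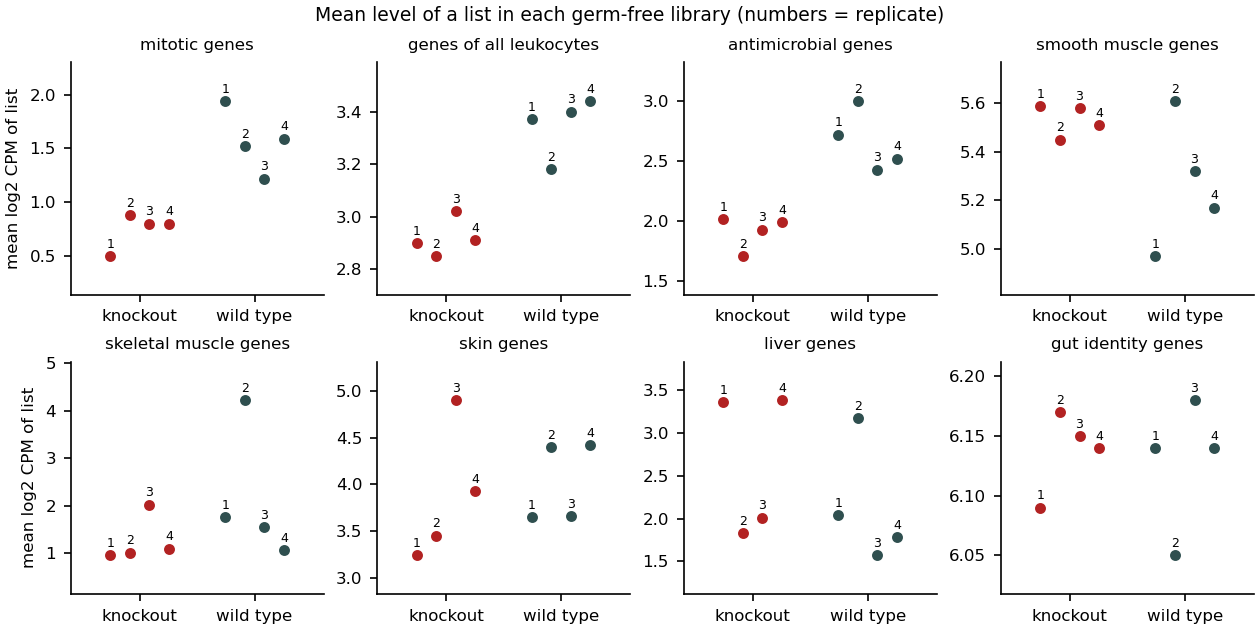
Mean log2 CPM of 8 gene lists (y axis) in each of the 4 knockout and 4 wild type germ-free libraries, with the replicate number beside each point. The groups separate for mitotic, leukocyte and antimicrobial genes, whereas skeletal muscle is high in wild type library 2, skin in knockout library 3 and liver in knockout libraries 1 and 4 and wild type library 2.

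Of 11254 genes tested with edgeR at an adjusted p under 0.05, 26.8% differed between germ-free knockout and germ-free wild type guts, with 1521 higher in the knockout (13.5%) and 1499 lower (13.3%). On the deposited TPM values, which are scaled to gene length and library total, the same contrast gave 1902 higher and 937 lower genes of 11254. The median log2 fold change of all genes was 0.072 there (pseudocount of 1). List counts and medians on TPM values below are to be read beside these. Most differences were small: 391 genes (3.47%) were both called and more than 2-fold higher, and 475 (4.22%) were called and more than 2-fold lower. The 4 knockout libraries lay wholly above or below the 4 wild type libraries for 3352 genes (29.8%). Genes named from the lists below were mostly picked for a small p. Separate ranges among them were therefore likely from the choice itself and add no support. The median log2 fold change of all genes was -0.004, and every list below is set beside these values.

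The largest rises in the knockout were nearly all-or-none. Members of the ggact family, which encode gamma-glutamylamine cyclotransferases that break down the crosslinks left by protein degradation, led the ranking. ggact.2 stood at 33, 25.9, 30.5 and 28.4 CPM in the 4 germ-free knockout libraries, while no count was found in any of the 4 wild type libraries, which makes it at least 1017-fold higher in the knockout against a floor of 3 counts over the wild type group. The copy ggact.3 had 11.6, 9.55, 10.7 and 10.4 CPM in knockout guts and 0, 0.0375, 0 and 0 CPM in wild type guts, and ggact.1 stood at 64.7, 62.6, 66.9 and 54 CPM in the knockout, against 4.26, 3.23, 3.31 and 3.93 CPM in wild type (log2 fold change 4.07 ± 0.14, adjusted p = 6.9e-14). The groups were far apart for the 3 copies, although reads of such close copies could have been split differently by the counting. selenol, a selenoprotein gene of fish, had 55.5, 55.4, 56.2 and 56.5 CPM in knockout libraries and 0.483, 0.15, 0.276 and 0.661 CPM in wild type libraries (log2 fold change 7.13 ± 0.21, adjusted p = 1.6e-14). ifi44f5, of a family induced by interferon, had 19.1, 26.8, 21 and 21.8 CPM in the knockout, against 0.132, 0, 0.0789 and 0.0348 CPM in wild type (log2 fold change 8.46 ± 0.46, adjusted p = 1.7e-10). Both showed a narrow spread among knockout libraries and almost no reads in wild type.

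Among the remaining large rises several genes have well-described roles. tsc1a encodes the hamartin subunit of the complex that restrains mTORC1, the growth-promoting kinase, and averaged 12.6 ± 3.08 CPM in knockout and 0.13 ± 0.0896 CPM in wild type guts (SD, n = 4 each; log2 fold change 6.59 ± 0.54). hmgcra, whose enzyme makes mevalonate for cholesterol, rose by 4.32 ± 0.54 on the same scale, at 96.1, 24.9, 28.8 and 51.7 CPM in knockout guts and 1.19, 3.49, 1.85 and 3.41 CPM in wild type guts. uroc1, the urocanate hydratase of histidine breakdown, stood at 61.4, 107, 74.2 and 79.1 CPM in the knockout, against 7.51, 7.25, 12.2 and 5.95 CPM in wild type (log2 fold change 3.29 ± 0.32, adjusted p = 7.8e-07). Every knockout library lay above every wild type library in these genes, as the rule for naming them required. The chemokine gene cxcl12b, whose product guides migrating cells, averaged 8.0 ± 1.91 CPM in knockout guts and 0.847 ± 0.0798 CPM in wild type guts (log2 fold change 3.23 ± 0.30). ddo, the D-aspartate oxidase, averaged 24.3 ± 4.39 and 2.66 ± 1.67 CPM in knockout and wild type guts, and rab11bb, a GTPase of recycling endosomes, averaged 20.6 ± 3.25 and 2.51 ± 0.178 CPM, also in that order. med7, a Mediator subunit, and klhl32, a kelch-like protein gene, had log2 fold changes of 4.99 ± 0.48 and 3.75 ± 0.24.

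The largest falls included an enzyme of the exocrine pancreas, a pentraxin and several intracellular proteins. cela1.3, a pancreatic elastase, stood at 3.27, 2.17, 3.69 and 3.73 CPM in the knockout, against 599, 766, 263 and 418 CPM in wild type (log2 fold change -7.31 ± 0.44, adjusted p = 2.4e-09). Its copy cela1.4 averaged 303 ± 122 CPM in knockout and 636 ± 176 CPM in wild type guts (log2 fold change -1.07 ± 0.34), with an adjusted p of 0.0922 without wild type library 2 and 0.0644 without knockout library 2. Of 30 exocrine pancreas genes tested, 2 were higher and 4 lower, and all 4 that fell were cela1 copies, whose reads could have been split by the counting; 1 of the 4 was called without wild type library 2 or without knockout library 2. In RNA from whole guts, here and for every cell type below, fewer cells of a type and less RNA per cell cannot be told apart. capn2l, a calpain protease gene, had 0, 0.0394, 0.16 and 0.0794 CPM in knockout libraries and 9.04, 16.7, 10.3 and 16.6 CPM in wild type libraries (log2 fold change -7.48 ± 0.58). aif1l, an actin-binding relative of the macrophage protein AIF1, fell to 12.5, 10.3, 18.5 and 13.9 CPM in the knockout, against 176, 124, 196 and 221 CPM in wild type (log2 fold change -3.70 ± 0.38, adjusted p = 1.6e-06). For cela1.3, capn2l and aif1l no library of 1 genotype reached into the range of the other, as the rule for naming them required.

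selp, the P-selectin that tethers leukocytes to vessel walls, averaged 0.207 ± 0.0817 CPM in knockout guts and 5.33 ± 1.09 CPM in wild type guts (SD, n = 4 each; log2 fold change -4.65 ± 0.35). ddx43, an RNA helicase gene, and spice1, a centriole and spindle protein gene, had log2 fold changes of -5.31 ± 0.29 and -4.57 ± 0.24. tmem177, a mitochondrial membrane protein gene, averaged 0.427 ± 0.30 CPM in knockout guts and 10.1 ± 2.56 CPM in wild type guts (-4.55 ± 0.41), and acbd4, an acyl-CoA binding protein gene, averaged 0.938 ± 0.111 and 14.7 ± 1.56 CPM in that order (-3.96 ± 0.16). The groups were again separate for every one of these genes, as the naming rule required. The trafficking gene tom1 and the zinc finger gene znf1124 had log2 fold changes of -2.94 ± 0.31 and -2.91 ± 0.31. hdac10, a polyamine deacetylase, averaged 4.46 ± 0.618 CPM in knockout and 28.4 ± 4.58 CPM in wild type guts, and cyp2aa2, a cytochrome P450, averaged 2.98 ± 0.789 and 30.5 ± 4.93 CPM in that order. By the same rule myl1, a myosin light chain of fast skeletal muscle, entered this group, but its wild type mean rested on library 2: it stood at 0.156, 0, 0.28 and 0.119 CPM in knockout guts and 0.615, 38.9, 0.631 and 0.313 CPM in wild type guts, and without that library the adjusted p was 0.562. Leaving out any 1 of the knockout libraries also ended the call, with adjusted p between 0.0799 and 0.0996. The skeletal muscle genes as a whole had 4 of 29 lower and none higher. Without wild type library 2 there were 2 higher and 1 lower, and likewise on TPM values. Without any 1 of knockout libraries 1, 3 and 4, 1 was lower and none higher.

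**Figure D2:**
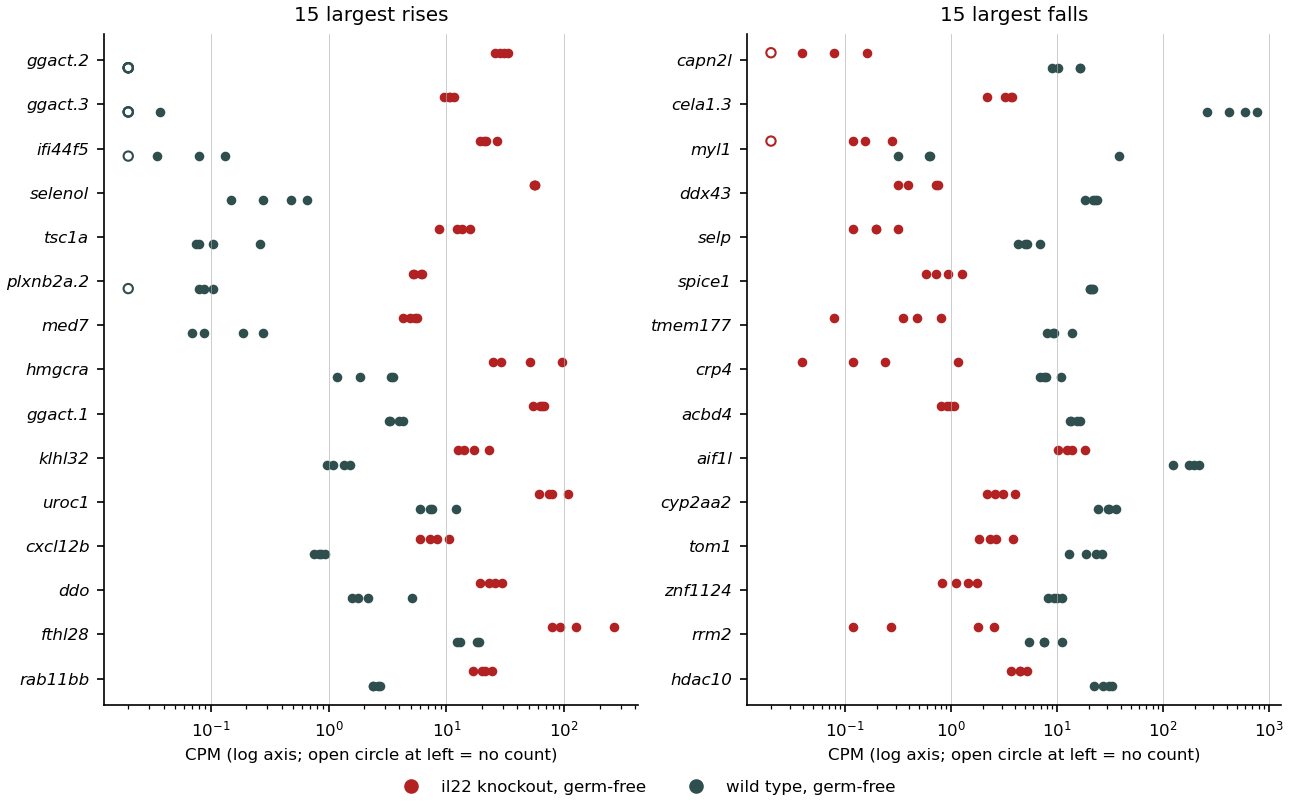
CPM (x axis, log scale) of the 15 genes with the largest rise and the 15 with the largest fall, 1 point per library, with knockout above wild type in each row and open circles for libraries with no count. The genotypes do not overlap in any row, as the rule for choosing the genes required, and myl1 is the gene whose wild type level rests on 1 library.

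Most of these large differences were also called in the conventional knockout and in the earlier experiment. Of all genes, 17% were higher and 19.1% lower in the conventional knockout (36.2% called), and 16.1% were higher and 17% lower in the earlier experiment (33.1% called). Of the 15 largest rises, 14 were also called in the same direction in the conventional knockout, and 12 of the 14 tested in the earlier experiment were called in the same direction there. Of the 15 largest falls, all 15 were lower in the conventional knockout as well, and 10 of 11 were lower in the earlier experiment. The log2 fold changes of selenol were 7.13 in germ-free, 7.12 in conventional and 7.76 in the earlier experiment, and those of cela1.3 were -7.31 in germ-free and -6.18 in conventional guts. The exception among the rises was fthl28, described with the rearing differences below. Over all genes called in germ-free guts, 1601 of 2791 tested in the earlier experiment (57.4%) were called there too, against 33% of all genes tested in both, and they were 46.7% of the 3425 genes called in the earlier experiment. Of the 1601, 849 rose in each comparison, 704 fell in each and 48 had opposite signs. The comparisons with the conventional and earlier libraries share no samples with the germ-free comparison. The germ-free and conventional comparisons did share a model and its estimate of spread. Every comparison set knockout larvae against wild type larvae, and the parents of each line are not given. Loss of the targeted gene was therefore not separated from other differences between the lines, whose part in the shared calls was not tested. Below, knockout effect means the difference between knockout and wild type larvae, whatever its source.

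A few members changed in the list of IL-22 receptor, STAT3 and SOCS feedback genes, which also holds receptors of related cytokines. Of 16 tested genes of the receptor, JAK, STAT3 and SOCS list, 2 were higher and 3 lower (31.2% called, median log2 fold change -0.09). On TPM values the list median was 0.01, but the median of all genes also moved up there. Relative to all genes the list median was -0.082 on counts. It was -0.085 on TPM values with a pseudocount of 0.1 and -0.066 with a pseudocount of 1. The count of lower genes stayed at 3 whichever library was left out, whereas 1 gene was higher without wild type library 2 or 3 or knockout library 1, 2 or 3, and none without knockout library 4. crfb15, a class II cytokine receptor gene, averaged 0.822 ± 0.276 CPM in knockout guts and 2.76 ± 0.525 CPM in wild type guts (log2 fold change -1.74 ± 0.37, adjusted p = 0.00139). il21r.1, of the interleukin-21 receptor family, and il10ra, the interleukin-10 receptor chain of leukocytes, had log2 fold changes of -1.43 ± 0.23 and -1.51 ± 0.31. pim1, a kinase gene that STAT proteins induce, averaged 208 ± 28.5 CPM in knockout and 159.8 ± 8.57 CPM in wild type guts (log2 fold change 0.38 ± 0.11, adjusted p = 0.0129), and its adjusted p was 0.0515 without knockout library 4. The other higher gene was il10rb, whose chain is part of the receptors of both interleukin-10 and IL-22, with a log2 fold change of 0.21. stat3 itself stood at 50.6, 53.5, 69.6 and 50.6 CPM in knockout guts and 65, 71, 64.8 and 51.8 CPM in wild type guts (log2 fold change -0.17 ± 0.15, adjusted p = 0.444), with overlapping groups.

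Antimicrobial and acute phase genes include classic IL-22 targets in mammals. Of 18 tested, 5 were lower and none higher (27.8% called), and the median log2 fold change was -0.87, or -0.29 with 4 lower without wild type library 2. There was 1 higher gene on TPM values, without wild type library 1, without knockout library 4 or with the 2 groups fitted alone. On TPM values the median was -0.41 with a pseudocount of 1 and -0.91 with a pseudocount of 0.1. Without knockout library 3 it was -1.11 on counts. crp4, a pentraxin related to C-reactive protein, stood at 0.0389, 0.118, 1.16 and 0.238 CPM in knockout libraries, against 10.8, 7.55, 6.95 and 7.9 CPM in wild type libraries (log2 fold change -4.41 ± 0.63, adjusted p = 4.2e-05). The complement gene c3a.6 had 4.01, 2.05, 1.04 and 5.04 CPM in knockout guts and 14.2, 20.8, 12.2 and 11.4 CPM in wild type guts (log2 fold change -2.27 ± 0.57). pglyrp6, which encodes a peptidoglycan recognition protein, had 7.32, 3.83, 5.21 and 9.73 CPM in knockout guts and 21.5, 14.1, 14.2 and 22.1 CPM in wild type guts (log2 fold change -1.46 ± 0.34). For each of the 3 genes all knockout libraries lay below all wild type libraries. itln2, an intelectin that binds microbial sugars, had no count in the knockout and 19, 15, 5 and 12 counts in the wild type libraries, which makes it at least 16.6-fold lower in the knockout against 3 counts over the group. Mean levels of the list were 1.71 to 2.02 in the knockout and 2.43 to 3.0 in wild type on the log2 CPM scale. Without wild type library 2 and knockout library 3 together, 3 of the list were lower. Several of these genes are also made by the liver, whose list overlapped between the genotypes (4 of 32 genes higher and 1 lower, with list means of 1.83 to 3.38 in the knockout and 1.57 to 3.17 in wild type). The part of liver tissue in these falls was not tested. None of 9 goblet cell and mucus genes passed the test (median 0.01).

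Genes of cell division were the list with the largest share of falls. Of 38 tested mitotic genes, 28 were lower and none higher (73.7% called), with a median log2 fold change of -1.21 and called values between -1.89 and -0.77. The other 10 did not pass, and 2 genes of the list had a positive log2 fold change. The proliferation marker mki67, whose values are given below with the replication genes, did not pass the test. ndc80, a kinetochore subunit, stood at 0.584, 1.22, 0.881 and 0.953 CPM in knockout guts and 4.35, 3.19, 2.17 and 2.47 CPM in wild type guts (log2 fold change -1.73 ± 0.31, adjusted p = 0.000295). anln, the anillin scaffold of the cleavage furrow, had 1.4, 2.13, 1.92 and 2.07 CPM in knockout and 6.28, 4.96, 3.75 and 6.02 CPM in wild type libraries (log2 fold change -1.48 ± 0.32). cenpe, the kinesin that aligns chromosomes, had 1.21, 1.54, 1.92 and 2.07 CPM in knockout guts and 6.01, 3.98, 3.39 and 5.57 CPM in wild type guts (log2 fold change -1.49 ± 0.38). All 4 knockout libraries were below all 4 wild type libraries for the 3 genes. The mean level of the list was 0.50, 0.88, 0.80 and 0.80 in knockout libraries and 1.94, 1.52, 1.22 and 1.59 in wild type libraries, with wild type library 1 the highest. Without wild type library 1, 18 of the genes were lower, and without wild type library 2 and knockout library 3 together, 21 were.

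DNA replication genes had fewer calls. Of 39 tested, 2 were higher and 3 lower (12.8% called, median -0.14, or 0.04 without wild type library 1 and -0.35 without knockout library 3), with 1 lower without wild type library 1 or without knockout library 1 and 5 lower without wild type library 3. rrm2, the small subunit of ribonucleotide reductase, had 0.272, 2.56, 1.8 and 0.119 CPM in knockout guts and 11.1, 7.55, 5.45 and 7.48 CPM in wild type guts (log2 fold change -2.72 ± 0.76, adjusted p = 0.0121). rpa2, a single-strand DNA binding subunit, and dhfr, the dihydrofolate reductase, were higher, with log2 fold changes of 0.74 ± 0.17 and 0.56 ± 0.13. pcna, the sliding clamp of replication, had 30.1, 48.3, 48.4 and 29.2 CPM in knockout guts and 67.9, 53.8, 33.2 and 35.9 CPM in wild type guts, and mki67, the Ki-67 proliferation marker, had 9.15, 16, 12.6 and 15.1 CPM in knockout guts and 16, 12.1, 9.23 and 11.2 CPM in wild type guts. Both overlapped between the genotypes (adjusted p = 0.368 and 0.674). Under conventional rearing 4 of the mitotic genes were lower and 1 higher, with a median of -0.39, and in the earlier experiment 7 of 36 were lower and 1 higher. Of all genes, 19.1% were lower in the conventional knockout and 17% in the earlier experiment. No mitotic gene passed the test of the difference between the germ-free and conventional knockout effects. Only 0.444% of all genes passed it, so this does not show that the 2 effects were equal.

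**Figure D3:**
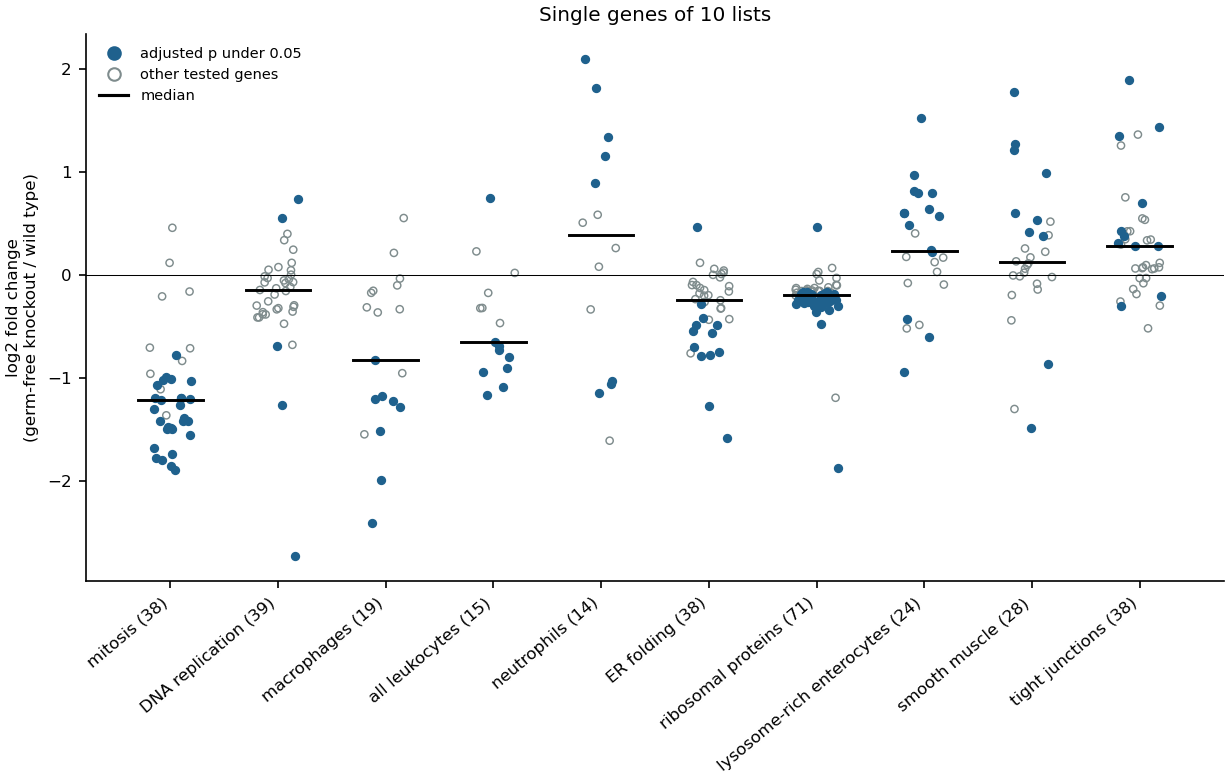
Log2 fold change (y axis, germ-free knockout over wild type) of each tested gene in 10 lists, with the number tested in parentheses, filled points for an adjusted p under 0.05, open points for the rest and bars for the medians. Called mitotic genes lie between -1.89 and -0.77, ribosomal protein genes form a narrow band with a median of -0.19, and lysosome-rich enterocyte genes lie mostly above 0.

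Of 15 genes expressed by all leukocytes, 8 were lower and 1 higher (60% called, median -0.64), and of 19 macrophage genes, 8 were lower and none higher (42.1% called, median -0.82). nckap1l, a regulator of the leukocyte actin skeleton, stood at 7.47, 5.29, 7.61 and 6.63 CPM in knockout guts and 16.2, 12.7, 15.4 and 16 CPM in wild type guts (log2 fold change -1.16 ± 0.17, adjusted p = 3.4e-05). mfap4.1, a macrophage marker in zebrafish, had 0.701, 0.631, 0.801 and 0.397 CPM in knockout libraries and 4.96, 2.82, 2.84 and 2.92 CPM in wild type libraries (log2 fold change -2.41 ± 0.30, adjusted p = 7.1e-06), and its copy mfap4.2 had a log2 fold change of -1.98 ± 0.34. The groups did not overlap for any of the 3. The macrophage marker mpeg1.1 had no count in any germ-free library of either genotype. Of the other genes shared by leukocytes, wasb and lcp1, which organise actin, had log2 fold changes of -0.93 ± 0.18 and -0.72 ± 0.19, whereas hcls1 was higher at 0.75 ± 0.17. Of 18 lymphoid genes, 5 were lower and 1 higher (33.3% called).

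Of 14 neutrophil genes, 5 were higher and 3 lower (57.1% called, median 0.39). The median was 0.63 without wild type library 2, 0.19 without wild type library 3 and 0.23 without knockout library 1. ncf4, a subunit of the phagocyte oxidase, stood at 15.8, 14.2, 14.1 and 15.4 CPM in knockout guts and 6.72, 5.11, 7.62 and 7.1 CPM in wild type guts (log2 fold change 1.16 ± 0.11, adjusted p = 2e-07). mmp9, a matrix-degrading protease, had 6.93, 8.92, 34.5 and 9.85 CPM in knockout libraries and 2.81, 4.58, 3.12 and 6.47 CPM in wild type libraries (log2 fold change 1.82 ± 0.41), with knockout library 3 far above the rest. mmp13a, a collagenase, averaged 4.06 ± 2.97 CPM in knockout guts and 0.928 ± 0.56 CPM in wild type guts (2.11 ± 0.51), and padi2, an arginine deiminase, averaged 14.3 ± 1.95 CPM in knockout guts and 29.7 ± 6.53 CPM in wild type guts. Both proteases are also made by skin and stromal cells, and skin genes, like mmp9, were highest in knockout library 3. The part of skin and stromal cells in the result was not tested.

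Inflammatory signalling genes were divided. ikbke, a kinase of the NF-kB and interferon pathways, averaged 3.29 ± 0.406 CPM in knockout guts and 0.485 ± 0.17 CPM in wild type guts (SD, n = 4 each; log2 fold change 2.74 ± 0.24, adjusted p = 6.7e-08), and nos2b, an inducible nitric oxide synthase, rose by 1.90 ± 0.31. The chemokine gene cxcl20 stood at 7.98, 10.1, 5.85 and 7.03 CPM in knockout and 15.3, 15.9, 19.3 and 18.1 CPM in wild type libraries (log2 fold change -1.15 ± 0.26). Of 23 NF-kB and inflammatory mediator genes in all, 2 were higher and 3 lower (21.7% called), with 1 lower on TPM values and 5 lower without knockout library 3. Of 28 interferon-responsive genes, 1 was higher and 5 lower (21.4% called, median -0.50). Without wild type library 3 the median was 0.05, with 3 higher and 3 lower, and without knockout library 4 it was -0.21. gbp4, a guanylate-binding protein gene, had 0.311, 0.197, 0.321 and 0.199 CPM in knockout guts and 1.98, 1.46, 2.25 and 1.22 CPM in wild type guts (log2 fold change -2.72 ± 0.34). irf7, the interferon regulatory factor, had 3.93, 5.52, 5.21 and 3.14 CPM in knockout guts and 7.9, 8.71, 11.5 and 10.1 CPM in wild type guts (log2 fold change -1.10 ± 0.24, adjusted p = 0.00186), with no overlap for either gene. The count of lower interferon genes was also 3 without knockout library 1 or without knockout library 4, and 2 on TPM values with a pseudocount of 1.

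Genes of protein synthesis and folding that changed were mostly lower. Of 71 cytoplasmic ribosomal protein genes, 45 were lower and 1 higher (64.8% called, median -0.19). rplp0, a stalk protein of the large subunit, stood at 5171, 4967, 4831 and 5072 CPM in knockout guts and 6435, 5991, 6332 and 6523 CPM in wild type guts (log2 fold change -0.34 ± 0.05, adjusted p = 5.2e-05), and rplp1 had 2464, 2414, 2389 and 2380 CPM in knockout guts and 3551, 3094, 3336 and 3414 CPM in wild type guts (-0.47 ± 0.05). Neither overlapped between genotypes. The count depended on the scaling and on 1 library: 14 were lower on TPM values, where the median of all genes moved to 0.07, and 29 were lower without wild type library 1. Of 38 endoplasmic reticulum folding and stress genes, 12 were lower and 1 higher (34.2% called, median -0.24, or -0.15 without knockout library 2). derl3, which takes part in exporting misfolded proteins from the endoplasmic reticulum, had 9.3, 6.19, 9.01 and 13.7 CPM in knockout guts and 22.3, 37.9, 22.8 and 30.7 CPM in wild type guts (log2 fold change -1.58 ± 0.27, adjusted p = 0.000264). The oxidase ero1a had 5.1, 4.58, 3.33 and 3.53 CPM in knockout libraries and 9.88, 10.7, 9.83 and 9.5 CPM in wild type libraries (-1.27 ± 0.14), and the chaperones calr and hspa5 had log2 fold changes of -0.78 ± 0.12 and -0.78 ± 0.18. Here too the knockout libraries did not overlap with the wild type ones, except for hspa5, which stood at 159.5, 87.1, 106 and 118 CPM in knockout guts and 191, 262, 142 and 210.0 CPM in wild type guts. selenok was the member that rose (0.47 ± 0.08). Without wild type library 2 and knockout library 3 together, 6 of these genes were lower. Exocrine pancreas is rich in folding genes, and the pancreas list averaged 7.58 to 8.86 in the knockout and 8.41 to 9.18 in wild type on the log2 CPM scale; its part in the result was not tested. Of 42 proteasome subunit genes, 12 were lower and 1 higher (31% called), but 3 were lower on TPM values, 7 without wild type library 1 and 6 without wild type library 2 and knockout library 3. The exception was psmb5, a catalytic subunit, at 20.9, 20.2, 21.7 and 22 CPM in knockout guts and 9.13, 7.21, 6.51 and 7.69 CPM in wild type guts (log2 fold change 1.47 ± 0.13, adjusted p = 7.6e-08).

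Lysosome-rich enterocytes, cells of the larval midgut that take up and digest luminal protein, had the largest share of rises among the epithelial lists. Of 24 tested genes of their endocytic and lysosomal machinery, 12 were higher and 3 lower (62.5% called, median 0.24), with 1 lower on TPM values with a pseudocount of 1. man2b1, a lysosomal mannosidase, stood at 1166, 1278, 840.1 and 787 CPM in knockout guts and 431, 231, 353 and 393 CPM in wild type guts (log2 fold change 1.53 ± 0.16, adjusted p = 1.4e-06). dab2, the endocytic adaptor that these cells need for protein uptake, had 701, 788, 604 and 614 CPM in knockout libraries and 451, 293, 362 and 426 CPM in wild type libraries (0.82 ± 0.12). The lysosomal enzymes naga and ctsh averaged 792 ± 157 and 543 ± 109.8 CPM in the knockout, against 454 ± 107 and 313 ± 82.5 CPM in wild type. All knockout libraries were above all wild type libraries for the 4 genes. The cathepsin gene ctsla moved the other way, with 413 ± 28.2 CPM in knockout guts and 628 ± 69.2 CPM in wild type guts (log2 fold change -0.60 ± 0.12).

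Lipid genes moved both ways. Of 33 genes of fatty acid uptake, triglyceride synthesis and lipoprotein assembly, 7 were higher and 10 lower (51.5% called, median -0.02). fabp1b.1, a fatty acid binding protein of enterocytes, stood at 1282, 1216, 1113 and 1299 CPM in knockout guts and 573, 435, 482 and 515 CPM in wild type guts (log2 fold change 1.29 ± 0.14, adjusted p = 1.9e-06), and lpla, a lipoprotein lipase gene, had 155, 121, 120.2 and 109.7 CPM in knockout guts and 57.1, 70.0, 58.8 and 59.3 CPM in wild type guts (1.04 ± 0.12). mogat2 and dgat1a, acyltransferases of triglyceride synthesis, had log2 fold changes of 0.50 ± 0.11 and 0.61 ± 0.10, whereas the related dgat1b was lower at -0.70 ± 0.09. The apolipoprotein genes named here were lower: apoa4b.1 averaged 4016 ± 339 CPM in knockout guts and 5736 ± 466 CPM in wild type guts (-0.51 ± 0.10), apoa1a averaged 1897 ± 224 and 2597 ± 358 CPM in that order (-0.45 ± 0.10), and apoc1 had a log2 fold change of -0.68 ± 0.13.

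Of 27 cholesterol synthesis, uptake and SREBP genes, 5 were higher and 1 lower (22.2% called, median 0.07). cyp51, the lanosterol demethylase, stood at 75, 50.7, 32.8 and 42.7 CPM in knockout guts and 10.4, 9.46, 8.6 and 13.3 CPM in wild type guts (log2 fold change 2.27 ± 0.38, adjusted p = 0.000257), and mvk, the mevalonate kinase, was lower at -1.74 ± 0.47. The count of higher genes was 2 without wild type library 1, wild type library 3 or knockout library 1, and 3 without wild type library 4, without knockout library 2 or with the replicate numbers as a block.

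Genes of bile acid synthesis and sensing also moved in both directions. nr1h4, the bile acid receptor FXR, had 38.2, 42.2, 33.4 and 31.8 CPM in knockout guts and 18.8, 15.1, 17.4 and 18.5 CPM in wild type guts (log2 fold change 1.06 ± 0.11, adjusted p = 5e-07), while nr0b2a, the corepressor SHP that FXR induces in mammals, had 237, 406, 403 and 354 CPM in knockout guts and 1187, 831, 691 and 637 CPM in wild type guts (-1.26 ± 0.32). cyp7a1, the rate-limiting enzyme of bile acid synthesis, stood at 242, 119, 118 and 196 CPM in knockout libraries and 29.9, 34.7, 105 and 83.5 CPM in wild type libraries (log2 fold change 1.41 ± 0.39, adjusted p = 0.0122). No wild type library reached the lowest knockout library of nr1h4 or cyp7a1, and no knockout library reached the lowest wild type library of nr0b2a. cyp8b1.1, the sterol hydroxylase of the same pathway, averaged 61.4 ± 15.8 CPM in knockout guts and 19.6 ± 7.96 CPM in wild type guts (1.65 ± 0.28). Of 12 bile acid genes tested, 4 were higher and 2 lower (50% called). Log2 fold changes of the 4 rises reached 8.05, and the lowest wild type mean of the list was 0 CPM. cyp8b1.3, a copy of cyp8b1.1, was among the 6 genes of smallest p in this list. Reads of these copies could have been split by the counting. The synthesis enzymes are liver genes in fish and mammals, and the liver marker fabp10a was also higher, at 49, 44.3, 27.6 and 43.4 CPM in knockout guts and 10.4, 14.5, 9.83 and 12.7 CPM in wild type guts (1.79 ± 0.43). Across the 32 liver genes tested 4 were higher and 1 lower (15.6% called). That list includes cyp7a1, and fabp10a was its gene of smallest p. Mean levels of the list overlapped, at 1.83 to 3.38 in the knockout and 1.57 to 3.17 in wild type on the log2 CPM scale. The part of liver tissue in the result was not tested.

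Of 24 gluconeogenesis and glycogen genes, 8 were higher and 6 lower (58.3% called); the count of higher genes was 5 without wild type library 1 or without knockout library 1, and the count of lower genes 3 on TPM values. gys2, a glycogen synthase, averaged 87.4 ± 27.3 CPM in knockout guts and 34.6 ± 11.8 CPM in wild type guts (log2 fold change 1.33 ± 0.25), and pcxa, a pyruvate carboxylase, averaged 123 ± 16.2 and 68.8 ± 10.9 CPM in that order (0.83 ± 0.11). Of 25 iron handling genes, 2 were higher and 8 lower (40% called), with 5 lower without wild type library 1, knockout library 2 or knockout library 3 and 4 higher without wild type library 2. hmox2a, a haem oxygenase, stood at 12.2, 11.4, 14.4 and 12.9 CPM in knockout guts and 31.3, 31.4, 32 and 32.2 CPM in wild type guts (log2 fold change -1.32 ± 0.08, adjusted p = 8.3e-10), and slc40a1, the iron exporter ferroportin, had a log2 fold change of -0.72 ± 0.13. The spread within each genotype was far smaller than the distance between them for hmox2a. fth1a, a ferritin heavy chain, was higher at 0.46 ± 0.08. In retinoid handling, where 4 of 27 genes were higher and 4 lower (29.6% called), rbp2a, the retinol carrier of enterocytes, averaged 1008 ± 130.1 CPM in knockout guts and 533 ± 63.5 CPM in wild type guts (0.92 ± 0.15), whereas the carotene-cleaving enzyme bco1 averaged 247 ± 19.6 and 411 ± 61.9 CPM in that order (-0.73 ± 0.12). On TPM values 2 of the retinoid genes were lower, and likewise without wild type library 3.

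Of 48 aryl hydrocarbon receptor and xenobiotic metabolism genes, 5 were higher and 11 lower (33.3% called, median 0.02). cyp2p9 stood at 48.3, 54.1, 67.6 and 25.8 CPM in knockout guts and 244, 193, 231 and 241 CPM in wild type guts (log2 fold change -2.22 ± 0.36, adjusted p = 0.000209), and its relative cyp2p6 had 58.3, 67.8, 79 and 50.4 CPM in knockout guts and 208, 183, 215 and 219.9 CPM in wild type guts (-1.69 ± 0.15). Both are cytochrome P450 genes, and neither overlapped between genotypes. ahr1a, an aryl hydrocarbon receptor gene, was higher at 1.24 ± 0.21, while cyp1a, the best-known target of that receptor family, had 92.9, 94, 57.4 and 103 CPM in knockout guts and 208, 181, 229 and 182 CPM in wild type guts (-1.20 ± 0.28). The count of higher genes was 3 without knockout library 2 or without knockout library 4, and 8 on TPM values. hsd11b2, which inactivates cortisol, was higher at 98.5, 149, 81.6 and 133 CPM in the knockout, against 34.5, 33.7, 28.5 and 32.8 CPM in wild type (log2 fold change 1.83 ± 0.23, adjusted p = 1.1e-05). It belongs to a list of 22 glucocorticoid-responsive genes, of which 3 were higher and none lower (13.6% called). dusp6, the phosphatase that limits ERK signalling, was lower at 18.4, 18.9, 21.6 and 17.9 CPM in the knockout, against 86.8, 63.7, 92.6 and 60.1 CPM in wild type (-1.98 ± 0.21, adjusted p = 1.2e-06). It belongs to a list of 34 immediate early genes, of which 2 were higher and 3 lower (14.7% called). None of that list was higher without wild type library 1 or 4 or without knockout library 3 or 4.

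Of 38 tight junction and adhesion genes, 9 were higher and 2 lower (28.9% called, median 0.29). Without knockout library 3, where skin genes were highest, the median was 0.07, with 7 higher and 3 lower, and on TPM values none was lower. cldnk stood at 15.6, 26.1, 16.4 and 19.3 CPM in knockout guts and 5.44, 4.28, 6.23 and 4.84 CPM in wild type guts (log2 fold change 1.90 ± 0.19, adjusted p = 6.9e-07), and cldn11b had 13.9, 12.5, 12.3 and 13.4 CPM in knockout and 4.17, 5.44, 5.52 and 5.26 CPM in wild type libraries (1.35 ± 0.12). Claudins form the seal of tight junctions, and cldn3c, another member, averaged 143 ± 14.8 CPM in knockout guts and 87.4 ± 10.9 CPM in wild type guts (0.71 ± 0.13). The groups did not overlap for the 3 claudins. Brush border hydrolases and nutrient transporters went both ways, with 8 of 31 higher and 7 lower (48.4% called), and 4 lower on TPM values. mep1a.2, a meprin protease, averaged 506 ± 36.3 CPM in knockout guts and 274 ± 37.5 CPM in wild type guts (0.88 ± 0.09). slc15a1b, the PepT1 transporter of small peptides, averaged 1317 ± 148 CPM in knockout and 2036 ± 236 CPM in wild type guts (-0.63 ± 0.12), and chia.1, an acidic chitinase, had a log2 fold change of -0.90 ± 0.24.

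Of 39 ion, bicarbonate and zinc transporter genes, 7 were higher and 4 lower (28.2% called). slc30a10, a manganese exporter, stood at 154, 163, 146 and 156 CPM in knockout guts and 79.5, 54, 64.4 and 64.1 CPM in wild type guts (log2 fold change 1.24 ± 0.13, adjusted p = 5.3e-07). ca4b, a membrane carbonic anhydrase, rose by 0.94 ± 0.16. The sodium pump copies moved apart: atp1a1a.4 averaged 8590 ± 266 CPM in knockout guts and 6000 ± 985 CPM in wild type guts (0.52 ± 0.11), while atp1a1a.3 averaged 2.31 ± 0.973 and 8.08 ± 1.38 CPM in that order (-1.81 ± 0.32) and atp1a1a.5 had a log2 fold change of -2.11 ± 0.47. Reads of these copies could have been split by the counting.

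The gut wall, which carries out the movements named in the study's title, changed in part of its smooth muscle genes. Of 28 gut smooth muscle and mesenchyme genes, 8 were higher and 2 lower (35.7% called, median 0.13). The median was 0.31 without wild type library 2 and 0.06 without wild type library 1. rgs5a, a regulator of G protein signalling found in contractile cells around vessels, stood at 88.6, 92.4, 92.7 and 99.3 CPM in knockout guts and 23, 27.7, 30.7 and 27 CPM in wild type guts (log2 fold change 1.78 ± 0.14, adjusted p = 1.2e-08). myl9b, a regulatory light chain of smooth muscle myosin, had 89.7, 84.3, 80.3 and 96.9 CPM in knockout and 31.4, 39.9, 42.8 and 36.5 CPM in wild type libraries (1.22 ± 0.11, adjusted p = 1.7e-07). csrp1a and pdlim3b, LIM domain proteins of the contractile apparatus, had log2 fold changes of 1.00 ± 0.14 and 1.27 ± 0.22. The knockout libraries were above the wild type ones in all 4 genes, which were among the 6 of smallest p in the list. Of the 28 genes, 9 had all knockout libraries above all wild type libraries, 2 had them below and 17 overlapped. myl6, a myosin light chain found in many cells, was lower (-0.86 ± 0.10), as was pdlim7 (-1.48 ± 0.21). Mean levels of the list overlapped, at 5.45 to 5.59 in the knockout and 4.97 to 5.61 in wild type on the log2 CPM scale. Of 51 collagen and matrix genes, 7 were higher and 2 lower (17.6% called), and 12 were higher on TPM values. The protease inhibitor timp2a averaged 14.4 ± 0.616 CPM in knockout guts and 4.45 ± 0.702 CPM in wild type guts (1.69 ± 0.23), and the basement membrane genes lama5 and col18a1a had log2 fold changes of 0.87 ± 0.14 and 0.67 ± 0.10. Of 26 endothelial genes, 4 were higher and 1 lower (19.2% called), and 7 were higher on TPM values. Both receptors of the angiopoietin system rose, with tek at 11.3, 12.9, 11.3 and 9.49 CPM in knockout guts and 6.19, 6.91, 5.33 and 6.72 CPM in wild type guts (0.84 ± 0.14), and tie1 averaging 12.8 ± 0.623 and 7.09 ± 1.26 CPM in that order (0.85 ± 0.15).

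Enteric neurons and enteroendocrine cells, which sense the lumen and drive gut movement, showed few calls. Of 35 enteric neuron and glia genes, 1 was higher and 1 lower (5.71% called, median 0.20), and 4 were higher without wild type library 3. The log2 fold change was positive for 24 of the 35 and negative for 11. The median was 0.31 without wild type library 3 and 0.06 without wild type library 1. The neurogenic factor ascl1a was lower at -0.87 ± 0.23, and rtn1b, a neuronal reticulon, was higher at 0.78 ± 0.21. Of 34 enteroendocrine genes, 1 was higher and 5 lower (17.6% called, median -0.13, or -0.39 without knockout library 1 and -0.02 without wild type library 2). gcga, the glucagon precursor, stood at 53.3, 33.1, 31.8 and 32.1 CPM in knockout guts and 20.5, 19, 23.5 and 22.4 CPM in wild type guts (log2 fold change 0.81 ± 0.20, adjusted p = 0.00416), with knockout library 1 well above the others. trpa1b, the irritant receptor of enteroendocrine cells, had 3.89, 3.23, 3.49 and 4.96 CPM in knockout guts and 4.3, 9.31, 9.0 and 8.7 CPM in wild type guts (log2 fold change -1.01 ± 0.20, adjusted p = 0.000811). The genotypes overlapped for trpa1b through wild type library 1 and did not overlap for gcga. ghrl, the precursor of the appetite hormone ghrelin, had 0, 0, 0 and 2 counts in the knockout libraries and 9, 53, 6 and 2 counts in the wild type libraries, most of them in wild type library 2 (adjusted p = 0.00895, or 0.0708 without that library). calca, the calcitonin gene, had 6, 1, 4 and 3 counts in the knockout libraries and 10, 23, 17 and 19 counts in the wild type libraries. The count of lower enteroendocrine genes was 3 without wild type library 2 and 2 on TPM values with a pseudocount of 1.

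**Figure D4:**
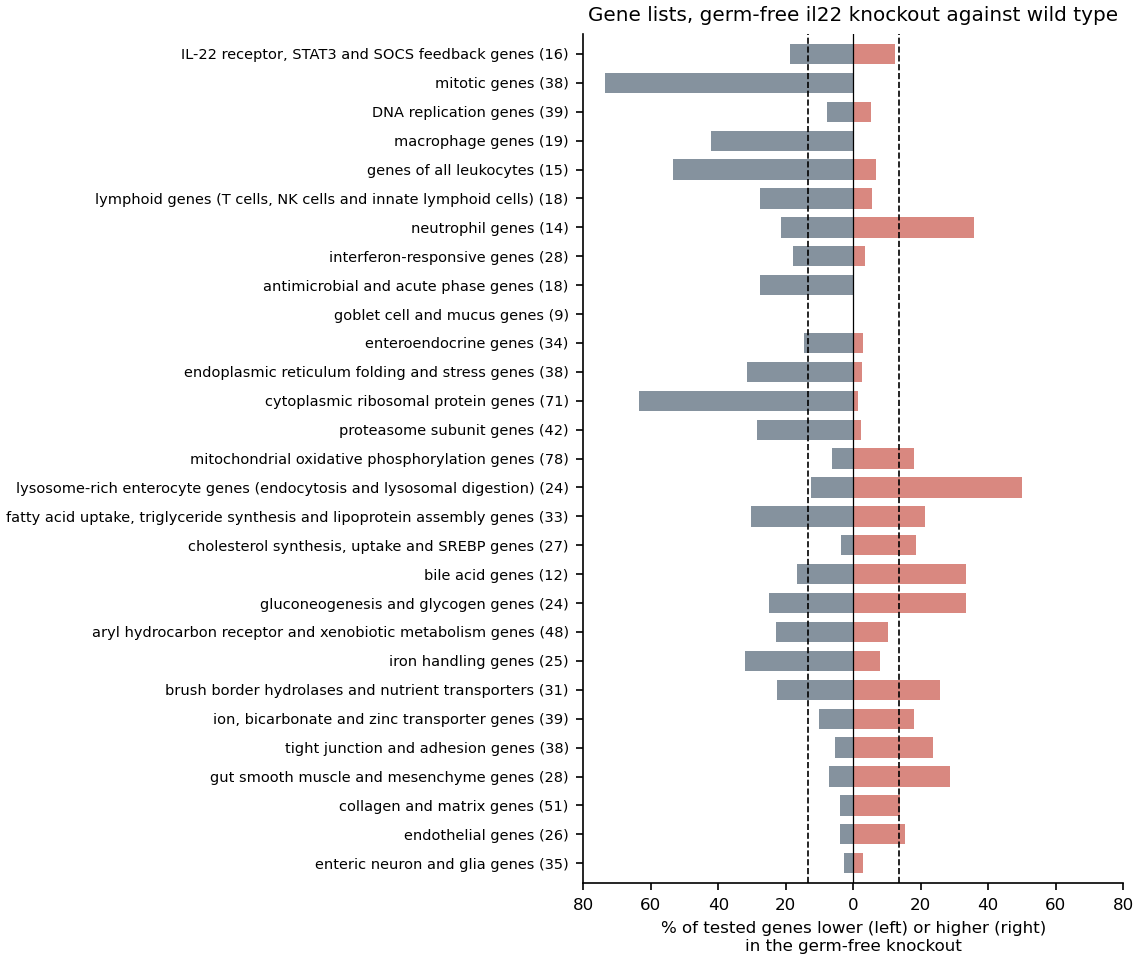
Percentage of the tested genes of 29 lists (number tested in parentheses) that were lower (left) or higher (right) in the germ-free knockout at an adjusted p under 0.05, with dashed lines at 13.3% lower and 13.5% higher for all genes tested. Mitotic and ribosomal protein genes reach furthest to the left, lysosome-rich enterocyte genes furthest to the right, and enteric neuron and goblet cell genes stay within the lines.

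Few genes had a knockout effect that differed between germ-free and conventional guts. Of 11254 genes, 50 passed the test of that difference (0.444%), with 37 more positive (0.329%) and 13 more negative (0.116%) in germ-free guts. Of the 50, 23 were called in germ-free guts and 41 in conventional guts, and 9 of the 14 called in both had opposite signs. The count depended strongly on single libraries: it was 989 without conventional wild type library 4, and all 50 genes were among these, but 7 without conventional knockout library 2. It was 17 to 32 without any 1 of germ-free wild type libraries 1 and 2, germ-free knockout libraries 1, 3 and 4, conventional wild type libraries 1, 2 and 3, or conventional knockout library 1. crtac1a, which encodes a cartilage acidic matrix protein, had the smallest p. It stood at 19.3, 15.2, 19.2 and 16.7 CPM in germ-free knockout and 6.89, 4.54, 9.04 and 10.1 CPM in germ-free wild type libraries, and at 69.2, 94.8, 77.9 and 84.7 CPM in conventional knockout and 137, 135, 118 and 130.4 CPM in conventional wild type libraries. Its log2 fold change was thus 1.20 in germ-free and -0.67 in conventional guts, a difference of 1.87 ± 0.24 (adjusted p = 0.00263). The genotypes were in opposite order under the 2 rearings, with no overlap under either.

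tspo, a cholesterol-binding protein of the outer mitochondrial membrane, averaged 93.2 ± 8.27 CPM in germ-free knockout and 58.4 ± 9.2 CPM in germ-free wild type guts, against 139 ± 5.26 CPM in conventional knockout and 164 ± 8.75 CPM in conventional wild type guts (difference 0.92 ± 0.14, adjusted p = 0.00724). cyp1a reversed in the other direction, with log2 fold changes of -1.20 in germ-free and 1.24 in conventional guts (difference -2.44 ± 0.40, adjusted p = 0.0175). Its conventional levels were 594, 463, 517 and 878 CPM in knockout guts and 275, 392, 158 and 212 CPM in wild type guts, with all 4 knockout libraries above every germ-free library. cyp2aa12, another cytochrome P450, had log2 fold changes of -0.41 and 0.54 in germ-free and conventional guts (difference -0.94 ± 0.13). fthl28, a ferritin-like gene, stood at 126, 263, 78.3 and 92.1 CPM in germ-free knockout and 12.3, 18.8, 13.1 and 18.2 CPM in germ-free wild type libraries, while conventional libraries had 14.7, 11.5, 17.4 and 19.8 CPM in knockout guts and 21.7, 14, 12.1 and 22.4 CPM in wild type guts. All 4 germ-free knockout libraries were above every other library shown for this gene (difference 3.31 ± 0.55, adjusted p = 0.0175). Without conventional knockout library 2 the adjusted p of this difference was 0.0527.

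cry3b, a cryptochrome of the circadian clock, averaged 248 ± 26.3 CPM in germ-free knockout and 235 ± 14.5 CPM in germ-free wild type guts, against 128 ± 10.4 CPM in conventional knockout and 213 ± 25.6 CPM in conventional wild type guts (difference 0.80 ± 0.13). rdh14b, a retinol dehydrogenase gene, and enpp1, an ectonucleotide pyrophosphatase, had differences of 0.85 ± 0.13 and 0.57 ± 0.10, with log2 fold changes of -0.22 and -0.16 in germ-free and -1.07 and -0.72 in conventional guts. slc27a6, a fatty acid transporter gene, rose in germ-free guts (0.60) and fell in conventional guts (-0.33; difference 0.94 ± 0.16). ugt2b6, a glucuronosyltransferase, had log2 fold changes of 0.21 in germ-free and 0.84 in conventional guts (difference -0.63 ± 0.11), and its germ-free call was lost without any 1 library other than wild type library 1. Without conventional knockout library 2 the adjusted p of the difference was 0.0527 for ugt2b6 and for enpp1 as well. Among the list genes described above, cyp8b1.1 had log2 fold changes of 1.65 in germ-free and -0.22 in conventional guts (difference 1.87 ± 0.38, adjusted p = 0.0362), and this call was lost in 11 of the 16 fits that left out 1 library.

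**Figure D5:**
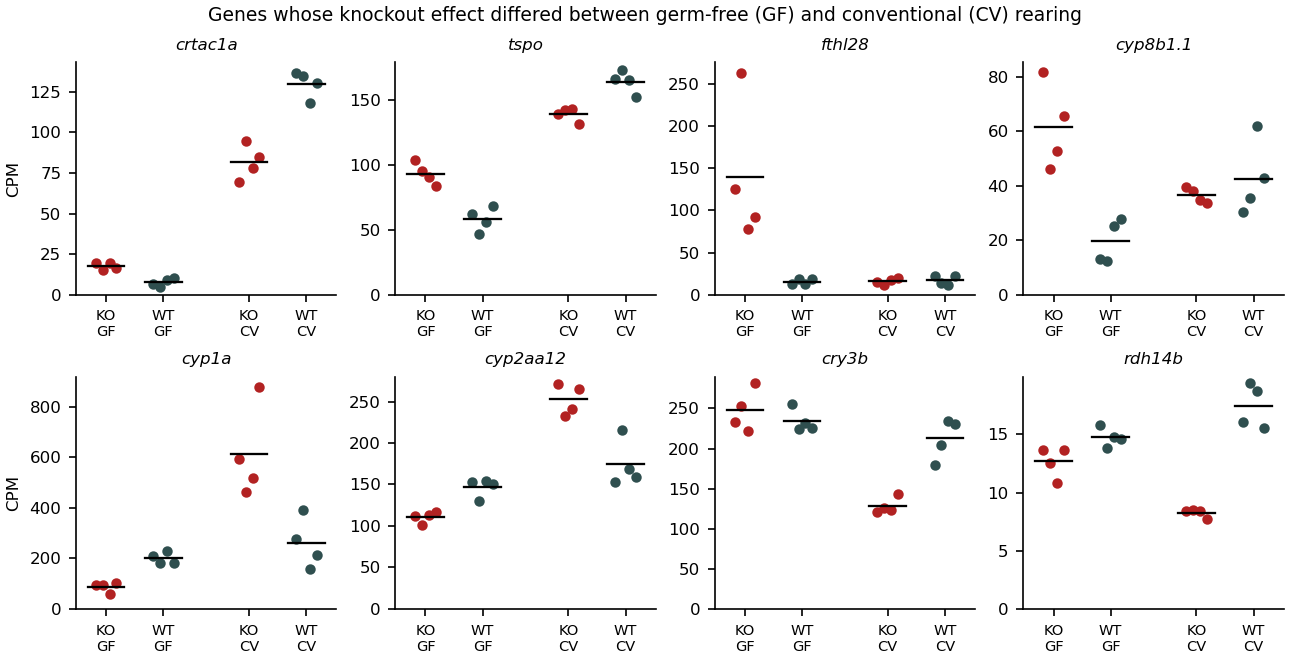
CPM (y axis, from 0) of 8 genes in each library of the germ-free (GF) and conventional (CV) knockout (KO) and wild type (WT) groups, with bars at the means of 4. crtac1a, tspo, cyp1a and cyp2aa12 show the genotypes in opposite order under the 2 rearings, fthl28 and cyp8b1.1 separate the genotypes in germ-free guts, and cry3b and rdh14b are lowest in the conventional knockout.

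Genes that lie near il22 on its chromosome were examined as a group, since a knockout line carries the chromosome on which the mutation was made. In the gene order of the RefSeq assembly GRCz12tu, 12 of the 50 tested genes nearest to il22 (25 on each side) were called (24%), with 7 higher and 5 lower, against 26.8% of all genes. Among the nearest 5 on each side, 3 were called. si:ch211-266a5.12, next to il22 among the tested genes, had log2 fold changes of -2.59 in germ-free and -0.12 in conventional guts, and was called in germ-free guts only. A call under 1 rearing alone is not a test of the difference between rearings. The whole chromosome had 26.7% of its tested genes called, rank 14 of 25 chromosomes, which ranged from 18.5% to 35.3%. Among the 12 were 3 copies of a plexin receptor gene, whose reads could have been split by the counting. plxnb2a.1 averaged 122 ± 5.89 CPM in knockout guts and 101 ± 7.96 CPM in wild type guts (log2 fold change 0.27 ± 0.06, adjusted p = 0.00256). The other copies were plxnb2a.2 at 5.33, 6.08, 6.25 and 5.2 CPM in knockout guts and 0.0878, 0, 0.0789 and 0.104 CPM in wild type guts (log2 fold change 6.30 ± 0.38), and plxnb2a.3 at 2.92, 3.16, 3.61 and 3.22 CPM in knockout guts and 0.483, 0.15, 0.316 and 0.139 CPM in wild type guts (3.58 ± 0.36). Both plxnb2a.2 and plxnb2a.3 had separate ranges in the genotypes and were also higher in the conventional knockout, by 6.38 and 2.56.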

How the data were processed

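The deposited table held whole-number read counts per gene for the 20 libraries of the germ-free, conventional and co-housed experiment, with a second such table of 8 libraries for the earlier experiment, and the authors also deposited TPM values, which are scaled to gene length and library total. Per the labels' protocols, stranded TruSeq mRNA libraries were sequenced as paired reads and aligned to danRer11 after quality checks with FastQC 0.11.8; the sources used here do not give the aligner, counting program, annotation or strand setting.

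A quasi-likelihood F test (edgeR 4.0.16, R 4.3.3) was run on counts after TMM scaling and the package's filter on low counts by group, with the 20 libraries in 1 model that shares the estimate of spread, and p-values were adjusted over all 11254 genes by the Benjamini-Hochberg method with a threshold of 0.05. SEs were taken as the log2 fold change over the root of F. CPM are counts per 1000000 of the TMM-scaled library, list levels are means of log2 CPM with 0.5 CPM added, and a gene with no count in a group was set to 3 counts over that group for a fold bound. The floor covers counting error only, while SDs and SEs include the spread between pools. Counts were also simulated for 11254 genes, with 50 genes changed at each of 1.5-, 2-, 4- and 8-fold. There the test found 42% of genes changed 1.5-fold, 68% of those changed 2-fold and 92% of those changed 4-fold, and 5.1% of its calls were false. Far fewer genes were changed than the 26.8% called in the data, and uneven levels of genes of surrounding tissues were not simulated. The rates therefore need not hold for the real comparison.

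Named genes were the 15 with the largest rise and the 15 with the largest fall among called genes with a mean of at least 5 CPM in one genotype and libraries that did not overlap, up to 6 genes of smallest p from each list, and the 10 of smallest p for the difference between rearings. Other list members, such as stat3, pcna, mki67 and mpeg1.1, were named for their known roles after their values were seen. The members and gene lists were chosen with earlier results of these data known. The alternatives were DESeq2 1.42.0, another scaling, no filter, the 2 groups fitted alone, a replicate block, leaving out each library, and limma 3.58.1 on log2(TPM + 1) or log2(TPM + 0.1).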

Additional observations from a re-analysis of the deposited data

Results flagged for a closer look

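In 20 of 287 groups of 4 libraries tested, 1 library stood apart from the other 3 (6.97%, where chance gives about 1 in 20). Several of these were in wild type library 2. It was far above the other wild type libraries for myl1, at 38.9 CPM against 0.313 to 0.631 CPM, for ghrl, at 1.99 CPM against 0.0696 to 0.395 CPM, for tie1, at 8.97 CPM against 6.35 to 6.59 CPM, and for lpla, at 70.0 CPM against 57.1 to 59.3 CPM. It was below them for cyp2aa12, at 130.0 CPM against 151 to 154 CPM, and it alone held a read of ggact.3, at 0.0375 CPM. Wild type library 1 was above the others for ddo (5.14 CPM), mfap4.1 (4.96 CPM) and tsc1a (0.263 CPM) and below them for trpa1b (4.30 CPM). Wild type library 3 was above the others for col18a1a (78 CPM) and below them for bhlhe41 (2.01 CPM), and wild type library 4 was above them for timp2a (5.50 CPM).

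Among the knockout libraries, library 3 was above the others for mmp9, at 34.5 CPM against 6.93 to 9.85 CPM, for stat3, at 69.6 CPM against 50.6 to 53.5 CPM, and for bhlhe41, at 0.801 CPM. Library 1 was above the others for gcga, at 53.3 CPM against 31.8 to 33.1 CPM. Library 4 was below them for hcls1 (15.2 CPM) and alone held reads of ghrl (0.0794 CPM), and library 2 was below them for selenok (50.9 CPM).

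The knockout effect differed between germ-free and conventional guts for the genes named above, by edgeR's test of the difference itself. The log2 difference was positive for fthl28 (3.31), crtac1a (1.87), cyp8b1.1 (1.87), slc27a6 (0.94), tspo (0.92), rdh14b (0.85), cry3b (0.80) and enpp1 (0.57). It was negative for cyp1a (-2.44), cyp2aa12 (-0.94) and ugt2b6 (-0.63).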

How the results depend on the processing

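The germ-free comparison called 3020 genes, and 2351 to 3248 under every alternative run, including the omission of wild type library 2 and knockout library 3 together, which was chosen after seeing the data. Leaving out 1 library gave 2556 to 2773 calls. On TPM values 67% of the calls were higher in the knockout, against 50.4% on counts, and the median log2 fold change of all genes was 0.072. The replicate numbers did not pair the libraries (correlations of -0.423 to 0.0746 between libraries with the same number), and the fit with the replicate numbers as a block called 2976 genes. The il22 difference ranged from -0.0591 to 0.0035 CPM on leaving out 1 library, and was positive without wild type library 2 (exact permutation p = 0.743). The difference between germ-free and conventional knockout effects was the least stable count: 50 genes, but 372 with DESeq2, 82 with the compared groups fitted alone, 56 with the replicate block and 7 to 989 on leaving out 1 library; the cause was not tested. Of 2461 values of the named genes under alternatives, 42 missed the threshold and none changed sign. The 42 were mainly those of myl1 and ugt2b6. Of 231 such values for the differences between rearings, 15 missed it and none changed sign. Most of these genes were named for a small p in the same data, so few losses follow from the choice. The list counts were less stable: of 1479 counts under alternatives, 1240 stayed near the main count, 197 were clearly lower and 42 clearly higher. At these totals genes with few counts, il22 among them, could not be compared.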

Other observations

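Other gene lists are set here beside the 26.8% of all genes called between the germ-free genotypes. Of 28 complement and coagulation genes, 6 were higher and 3 lower in the knockout (32.1% called). cfhl2, a complement factor H-like gene, had 25, 25, 21 and 9 counts in the knockout libraries and no count in any wild type library, which makes it at least 27.3-fold higher against 3 counts over the wild type group. c3b.1, a complement component 3 gene, stood at 4.28, 3.67, 3.04 and 4.17 CPM in knockout guts and 0.746, 0.563, 0.158 and 0.0696 CPM in wild type guts (log2 fold change 3.32 ± 0.52, adjusted p = 9.6e-05 in edgeR's quasi-likelihood test), in the opposite direction to its copy c3a.6. Reads of such copies could have been split by the counting.

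Of 78 mitochondrial oxidative phosphorylation genes, 14 were higher and 5 lower (24.4% called), with 9 higher without knockout library 2, 3 lower without wild type library 1 and 2 lower on TPM values. In fatty acid oxidation, where 4 of 37 genes were higher and 5 lower (24.3% called), the mitochondrial uncoupling protein gene ucp1 averaged 11852 ± 1413 CPM in knockout guts and 16034 ± 1486 CPM in wild type guts (SD, n = 4 each; log2 fold change -0.44 ± 0.10). The clock repressor gene bhlhe41 stood at 0.623, 0.631, 0.801 and 0.635 CPM in knockout guts and 3.42, 3.45, 2.01 and 3.52 CPM in wild type guts (-2.20 ± 0.32), among 35 clock genes of which 3 were higher and 3 lower (17.1% called); 7 were higher on TPM values and 5 were higher without wild type library 3. hbbe1.3, an embryonic beta globin gene, stood at 0.0389, 0.197, 0.16 and 0.0397 CPM in knockout guts and 2.81, 2.25, 2.13 and 1.98 CPM in wild type guts (-4.34 ± 0.42), with no overlap between genotypes.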
